A study of Mus musculus with 12 samples.

Results

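The comparison set prostate epithelial cells with an intermediate surface level of SCA1 (SCA1Int) against cells with a low level (SCA1low), averaged over cells with and without surface LY6D. It used 8 of the 12 libraries of the series, chosen by the sort label alone: 4 SCA1Int and 4 SCA1low libraries, in each case 2 from LY6D+ and 2 from LY6D- cells. The 4 populations are LY6D+SCA1Int, LY6D-SCA1Int, LY6D+SCA1low and LY6D-SCA1low. All came from the prostate of wild-type C57BL/6 mice, aged 6 to 8 weeks, and carried no transgene, deletion or treatment according to the labels. Cells were first depleted of those carrying CD31, CD45 or Ter119, which mark endothelium, leukocytes and red cells, and the series describes the sorted cells as luminal. The other 4 libraries, LY6D+SCA1high and LY6D-SCA1high, entered the fit and are given here only as a reference point. Replicates are called biological in the series text, without word of the number of animals or pools behind a library. The p-values therefore measure only the spread between these libraries, which may be technical.

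The prostate gland is lined by luminal cells, which make the proteins of prostatic fluid, and by basal cells, which lie beneath them and carry keratins of stratified epithelium. Luminal secretion depends on androgen, and the secreted proteins are folded in the endoplasmic reticulum (ER) with the help of chaperones such as BiP, the product of Hspa5. SCA1 (gene Ly6a) and LY6D (gene Ly6d) are small surface proteins of the LY6 family. In mouse prostate, SCA1 is better known as a mark of basal cells and of luminal cells near the urethra than of the secreting cells of the distal ducts.

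RNA was read as 3' tags (Lexogen QuantSeq, which counts the 3' ends of polyadenylated RNA), and levels are given as CPM, the counts of a gene scaled to equal library totals, after TMM scaling, a correction for differences in RNA composition. The 8 libraries held 11465798 to 19842647 counts. In bulk RNA of this kind, fewer cells of a type and less RNA per cell cannot be told apart. Ly6a, the gene of the sorting marker, stood at 44.9 and 55.5 CPM in LY6D+SCA1Int against 3.4 and 13.5 in LY6D+SCA1low, and at 102 and 148 in LY6D-SCA1Int against 24.8 and 68.8 in LY6D-SCA1low. Each SCA1Int pair was thus above its SCA1low pair, although the average difference missed the threshold (log2 fold change 1.99 ± 0.52 SE, edgeR adjusted p = 0.134). Ly6d was at 37 to 134 CPM in the 4 LY6D+ libraries and at 0.4 to 2.2 in the 4 LY6D- libraries. The luminal keratin gene Krt8 was found in all 8 libraries, at 66.4 to 276 CPM, and Krt18 at 128 to 502 CPM. The basal keratin gene Krt14 was also found, at 161 CPM or more in 6 libraries and at 3.29 and 3.55 CPM in LY6D-SCA1low. Luminal keratin transcripts were thus present in every population, and Krt14 was nearly absent from LY6D-SCA1low.

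1 library, LY6D-SCA1low replicate 2, stood apart in its level of genes typical of LY6D-SCA1high replicate 1. Over 98 genes abundant in that SCA1high library and scarce in the remaining libraries, its median level was 10.7% of the level there. The value was 2.02% over 36 genes in LY6D-SCA1low replicate 1 and 0% to 0.242% in the other 6 libraries. Genes were chosen anew for each library, which was itself exempt from the rule of scarcity. The other sets thus left out genes at 0.1 or more of that level in LY6D-SCA1low replicate 2, a choice that favours this contrast. LY6D-SCA1low replicate 2 is called the doubted library in what follows, and some of the counts that rest on it are also given without it. Features of the ribosomal RNA repeat took 12.2% to 16.9% of the counts in the SCA1Int libraries and 19.5% to 24.4% in the SCA1low libraries, so this share moved with SCA1 level without overlap.

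Between SCA1 intermediate and SCA1low cells, genes of prostatic secretion and of protein folding in the ER fell, and keratin genes of stratified epithelium rose. Of 15270 genes tested, 51 were called (0.334%), 12 higher (0.0786%) and 39 lower (0.255%) in SCA1Int. Called means a Benjamini-Hochberg adjusted p below 0.05 in the quasi-likelihood test of edgeR, which also gave the adjusted p-values that follow. Without the doubted library 125 genes were called, and all 51 were among them. The split into higher and lower moved with the scaling: it was 10 and 54 with RLE size factors and 35 and 28 with library size alone. These scalings put the median log2 fold change of all tested genes at -0.03 and 0.50, against 0.21 with TMM. In 19 of the 51 the 4 SCA1Int libraries did not overlap with the 4 SCA1low libraries, against 3.08% of all tested genes. The 2 LY6D states contributed unequally. Of the 39 lower genes 31 had the larger fall within LY6D+ cells, and 11 of the 12 higher genes had the larger rise within LY6D- cells. Over all 15270 tested genes, 8357 had the more positive change within LY6D- cells, with a median difference of 0.295.

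Among the 25 gene lists, that of secretory genes held the most called genes. Of the 39 lower genes 28 were protein-coding. The others were 2 mitochondrial ribosomal RNA genes, 3 long intergenic RNAs, 3 miscellaneous RNAs, 1 ribosomal RNA, 1 small nucleolar RNA and 1 without a position. Of 32 genes listed as products of prostate secretory cells, 29 were tested, 9 fell and 0 rose. The list's median log2 fold change was -1.90, beside 0.21 over all tested genes, and 25 of its members were negative. Summed over the list, secretory transcripts took 0.261% and 0.431% of all counts in LY6D+SCA1Int, 1.96% and 2.67% in LY6D+SCA1low, 3.82% and 4.67% in LY6D-SCA1Int, and 7.13% and 9.36% in LY6D-SCA1low. Within each LY6D state the SCA1Int libraries were therefore all below the SCA1low libraries, but LY6D-SCA1Int lay above LY6D+SCA1low. In the SCA1high libraries the share was 0.182% to 0.714%. The count of called members was 9 with library size alone, 11 without the doubted library, 14 by DESeq2 and 6 by limma-trend.

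**Figure D1:**
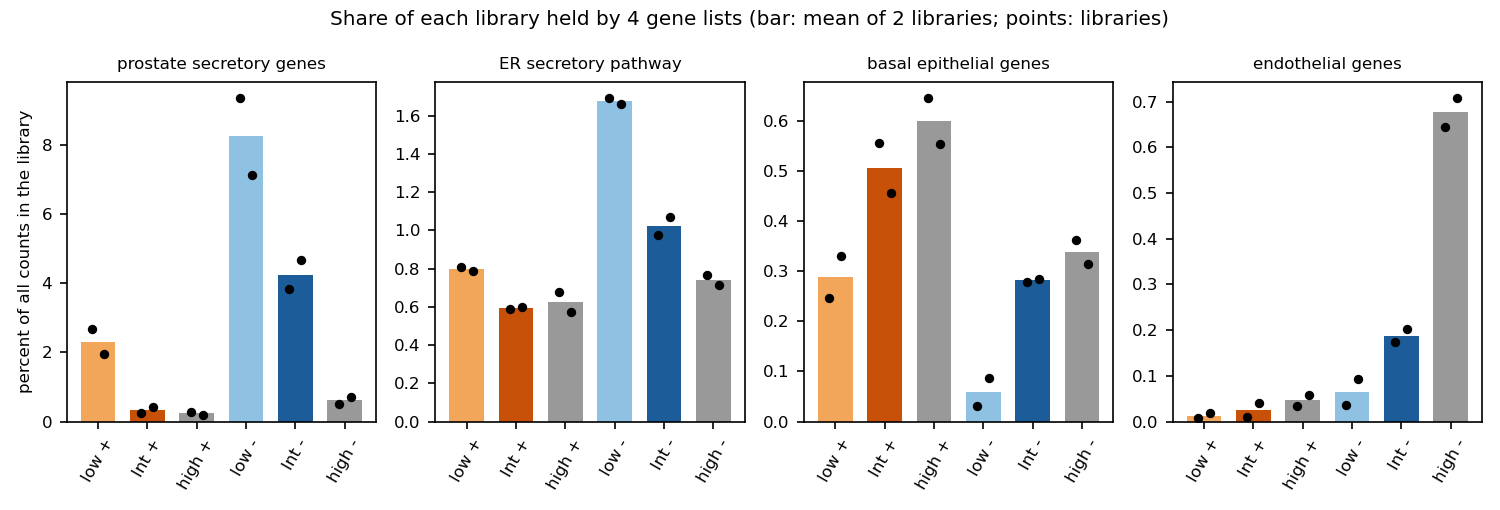
Percent of all counts held by 4 gene lists in each sorted population, with LY6D state written as + or - after the SCA1 level. Bars are means of 2 libraries and points are the libraries. Secretory genes take 7.13% and 9.36% of the LY6D-SCA1low libraries and 0.261% and 0.431% of the LY6D+SCA1Int libraries, while the basal list is lowest in LY6D-SCA1low.

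Pbsn (chromosome X, 77837901 to 77853623, GRCm38) encodes probasin, an androgen-regulated secretory protein. Its level was 183 and 343 CPM in LY6D+SCA1Int and 3910 and 3000 in LY6D+SCA1low. In LY6D- cells it was 3055 and 2545 at SCA1Int and 10655 and 7158 at SCA1low. The fall was present in both states but deeper in LY6D+ cells, where the log2 fold change was -3.72 ± 0.30 (SE, adjusted p = 1.69e-08), against -1.67 ± 0.28 in LY6D- cells (adjusted p = 0.00297). The average was -2.69 ± 0.21 (adjusted p = 1.61e-09). The gene is shown with its promoter because it is the classical androgen-responsive gene of this gland. The 250 bases before its start in RefSeq (chrX:77853501-77853750, minus strand, GRCm38.p6) hold 1 match to the androgen receptor half-site TGTTCT, searched on both strands. It lies on the opposite strand, begins 95 bases before the start and is in capitals.
Pbsn: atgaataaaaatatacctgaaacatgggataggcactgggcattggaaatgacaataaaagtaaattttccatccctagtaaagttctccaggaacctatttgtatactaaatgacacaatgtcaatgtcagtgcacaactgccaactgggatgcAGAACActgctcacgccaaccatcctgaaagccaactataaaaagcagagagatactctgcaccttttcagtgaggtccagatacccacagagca
The same letters occur in 8 of the 23 secretory genes with a promoter in the RefSeq table and in 16.1% of all 32851 promoter windows of that length. Of 20 genes listed for androgen response, all tested, Pbsn alone was called, and the list's median of 0.18 lay beside the 0.21 of all genes.

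Spink1 (chromosome 18, 43728082 to 43737557), whose product inhibits trypsin in secretions, was the most abundant of the called secretory genes. It stood at 653 and 1437 CPM in LY6D+SCA1Int against 16940 and 9020 in LY6D+SCA1low. The corresponding LY6D- values were 22780 and 27939 against 71398 and 34790. Libraries did not overlap within either state, and the average log2 fold change was -2.35 ± 0.23 (adjusted p = 2.02e-07). Only the change within LY6D+ cells was called (-3.63 ± 0.34, adjusted p = 9.3e-08), and the difference between states also passed, as given further on.

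Defb50, a prostate beta-defensin (chromosome 8, 21823539 to 21831296), was at 865 and 712 CPM in LY6D+SCA1Int, and at 3499 and 3722 in LY6D+SCA1low. In LY6D- cells it held 3752 and 4219 CPM at SCA1Int and 7320 and 4436 at SCA1low, where the second low library lay close to the intermediate ones (average -1.38 ± 0.17, adjusted p = 4.26e-05). Msmb, which encodes beta-microseminoprotein (chromosome 14, 32142023 to 32158370), showed the same unevenness more strongly. Its LY6D+ values were 39.8 and 50.3 CPM at SCA1Int and 722 and 622 at SCA1low, whereas its LY6D- values were 808 and 785 against 1178 and 851. The log2 fold change was -3.90 ± 0.56 in LY6D+ cells (adjusted p = 0.000514) and -0.35 ± 0.50 in LY6D- cells, with an adjusted p of 0.0625 for the difference between them.

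Mmp7 and Ren1 fell by more. Mmp7 (matrilysin, a protease that can activate defensins, chromosome 9, 7692090 to 7699585) was at 16.6 and 8.15 CPM in LY6D+SCA1Int and at 356 and 127 in LY6D+SCA1low. In LY6D- cells, 136 and 171 CPM at SCA1Int faced 611 and 799 at SCA1low (average -3.24 ± 0.48, adjusted p = 0.000203). Ren1, the gene of renin, the enzyme that cleaves angiotensinogen (chromosome 1, 133350510 to 133360325), was counted only 2 and 40 times in LY6D+SCA1Int, or 0.108 and 2.12 CPM. It reached 79.7 and 136 CPM in LY6D+SCA1low, 43.6 and 32.8 in LY6D-SCA1Int, and 338 and 327 in LY6D-SCA1low. All 4 SCA1Int libraries were below all 4 SCA1low libraries for Ren1 (average -4.85 ± 0.91, adjusted p = 0.00555). Its call within LY6D+ cells (adjusted p = 0.041) was lost when LY6D+SCA1Int replicate 1 was left out, and with library size alone.

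Tgm4, the prostate transglutaminase that cross-links seminal proteins (chromosome 9, 123034726 to 123067561), was at 181 and 138 CPM in LY6D+SCA1Int against 1265 and 1573 in LY6D+SCA1low. In the LY6D- libraries it held 1119 and 958 CPM against 4710 and 3572, and the average change was -2.57 ± 0.45 (adjusted p = 0.00219). Zdhhc3 was called lower as well (-2.56 ± 0.34, adjusted p = 5.97e-05), but its annotated interval overlaps that of Tgm4, and reads of the 2 genes cannot be told apart without the strand setting. Sbp, spermine binding protein (chromosome 17, 23941672 to 23945607), had an average change of -1.89 ± 0.32 (adjusted p = 0.00188), and its near copy Sbpl may share reads with it. 9530053A07Rik, the ninth called member, had the smallest p of all genes. Its level was 419 and 295 CPM in LY6D+SCA1Int and 3426 and 3084 in LY6D+SCA1low, then 2938 and 3142 in LY6D-SCA1Int and 15885 and 9293 in LY6D-SCA1low (average -2.62 ± 0.19, adjusted p = 1.57e-09). It was one of 7 genes called within both LY6D states.

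**Figure D2:**
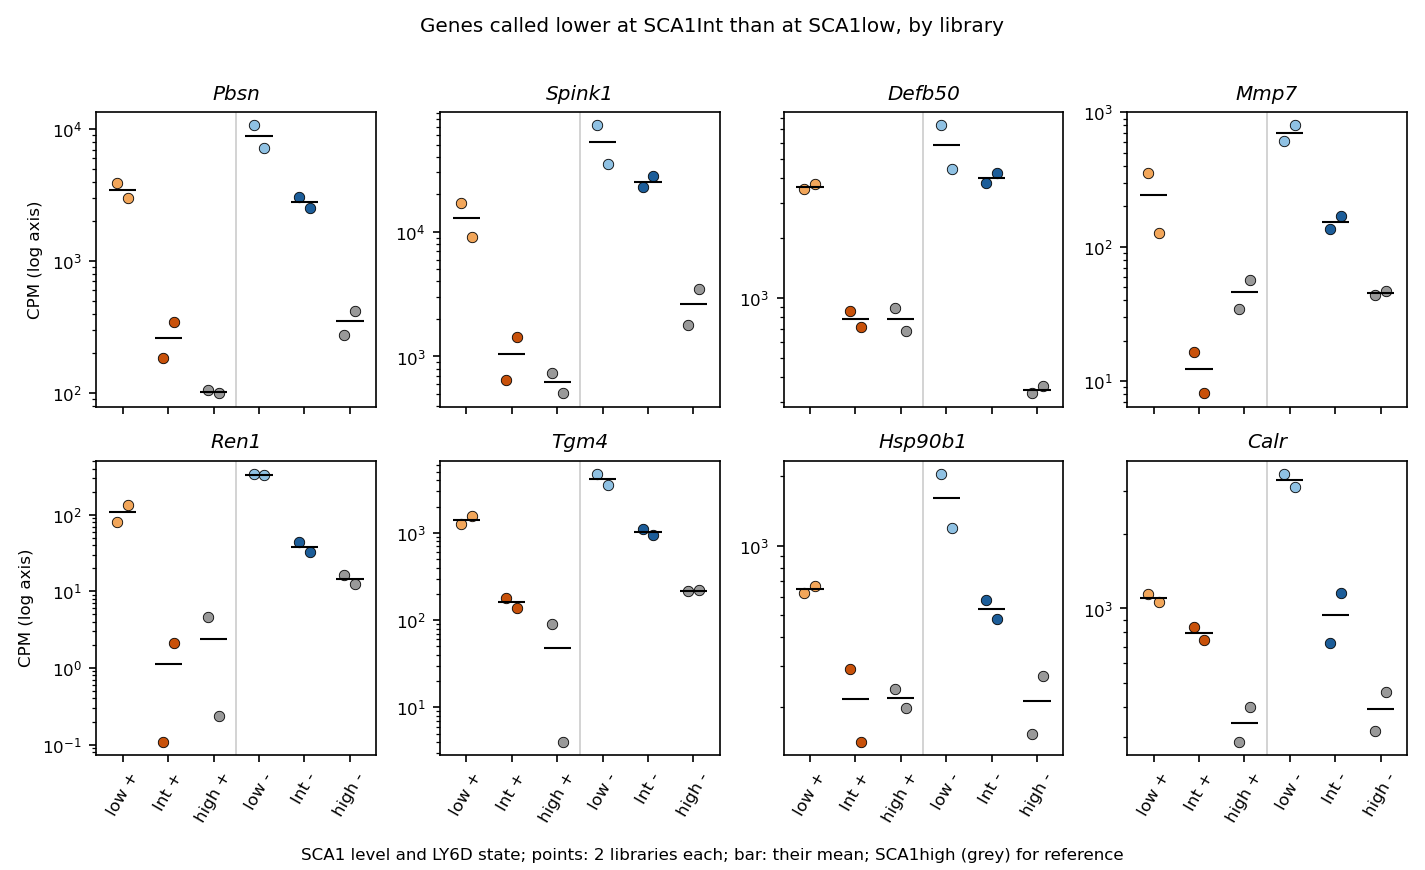
CPM on a log axis in all 12 libraries for 8 genes called lower in SCA1Int, by SCA1 level and LY6D state (+ or -). Points are libraries and bars their means. In LY6D+ cells Pbsn falls from 3910 and 3000 at SCA1low to 183 and 343 at SCA1Int, while in LY6D- cells it is at 3055 and 2545 at SCA1Int, below 10655 and 7158 at SCA1low.

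Outside the secretory list, protein-coding genes with small p-values included an antioxidant enzyme, a tetraspanin, a channel regulator and an ER reductase. Prdx6, a peroxiredoxin that reduces lipid peroxides, was at 79.6 to 754 CPM in the SCA1Int libraries and 518 to 2234 in the SCA1low libraries (average -1.95 ± 0.29, adjusted p = 0.000221). On average it was the only called gene among 29 tested genes of glutathione and aldehyde metabolism, whose median was 0.59. Within LY6D- cells Aldh1a7 was called higher (5.64 ± 1.20, adjusted p = 0.0374). That call was lost in 8 of 19 alternatives, including RLE, limma-trend and a test against a 1.5-fold change. Tspan1, a tetraspanin, was at 25.3 and 23.2 CPM in LY6D+SCA1Int and 359 and 243 in LY6D+SCA1low, with a smaller step in LY6D- cells from 554 and 523 down to 262 and 238 (average -2.37 ± 0.44, adjusted p = 0.00471). It was the only called gene of the 28 tested in the list for proximal luminal cells, and it went against that list's median of 1.01. Tcaf3, a regulator of TRP channels, changed by -3.16 ± 0.43 (adjusted p = 8.55e-05), with SCA1Int at 25.1 to 380 CPM and SCA1low at 423 to 2418. Dnajc10, a disulfide reductase of the ER, changed by -1.95 ± 0.32 (adjusted p = 0.00119).

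Secreted proteins are folded in the ER, and 4 ER folding genes fell as well. In the ER secretory pathway list, 44 of 45 genes were tested, 4 fell and 0 rose, the median was -0.95, and 37 members were negative. Hsp90b1, the ER form of HSP90 (chromosome 10, 86690209 to 86705509), was at 291 and 140 CPM in LY6D+SCA1Int and 626 and 670 in LY6D+SCA1low. In LY6D- cells it was at 580 and 479 against 2043 and 1195, so that the change was nearly equal in both states (-1.59 ± 0.43 and -1.61 ± 0.43) and called only on their average (-1.60 ± 0.31, adjusted p = 0.00703). Hspa5, which encodes BiP (chromosome 2, 34771970 to 34777547), was at 842 and 1022 CPM in LY6D+SCA1Int, 1808 and 2027 in LY6D+SCA1low, 2044 and 2523 in LY6D-SCA1Int, and 3523 and 3528 in LY6D-SCA1low. Its libraries separated within each state but overlapped across them (average -0.83 ± 0.18, adjusted p = 0.0203).

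Calr, the calcium-binding chaperone calreticulin (chromosome 8, 84841850 to 84846934), differed from the others in that its call lay in LY6D- cells. There it stood at 722 and 1156 CPM at SCA1Int and 3502 and 3124 at SCA1low (-1.82 ± 0.33, adjusted p = 0.00598). In LY6D+ cells it was at 842 and 748 against 1146 and 1058 (-0.47 ± 0.32, adjusted p = 0.822), but the difference between states was not called (adjusted p = 0.547). Pdia4, a protein disulfide isomerase (chromosome 6, 47796141 to 47813430), was at 162 and 34.5 CPM in LY6D+SCA1Int and 97.4 and 79.1 in LY6D-SCA1Int, all below the 330, 337, 844 and 482 CPM of the SCA1low libraries (average -2.34 ± 0.46, adjusted p = 0.00996). The average calls of Hspa5 and Calr were lost with library size as the only scaling and when LY6D-SCA1Int replicate 1 was left out. Those of Hsp90b1 and Pdia4 were lost by limma-trend, and those of Hspa5, Calr and Hsp90b1 in an additive model. Against a 1.5-fold change all 4 average calls were lost. Under library size alone 2 members of the list were called, under RLE 6, without the doubted library 8, by DESeq2 11 and by limma-trend 2.

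Members that did not pass included Manf, Sdf2l1, Hyou1 and Pdia6, with log2 fold changes of -3.26, -3.24, -1.54 and -1.43. None of the 5 tested transcription factor genes of the list was called: Xbp1 had 0.46 ± 0.79, Atf4 0.09 ± 0.27, Ddit3 -0.41 ± 1.19, Creb3l1 -1.24 ± 2.04 and Creb3l4 -4.33 ± 2.23. The promoters of 3 of the 4 called genes are printed because they share an ER stress response element (ERSE), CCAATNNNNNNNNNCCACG, searched on both strands in the 250 bases before the RefSeq start and shown in capitals. Each promoter is given in the direction of its gene, so a match on the opposite strand appears as the reverse complement.
Hspa5: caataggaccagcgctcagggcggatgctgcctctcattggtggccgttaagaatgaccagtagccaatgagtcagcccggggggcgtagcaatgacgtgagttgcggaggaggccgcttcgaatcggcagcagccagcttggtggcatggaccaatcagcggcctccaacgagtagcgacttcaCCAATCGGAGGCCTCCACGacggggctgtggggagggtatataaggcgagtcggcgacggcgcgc
Hsp90b1: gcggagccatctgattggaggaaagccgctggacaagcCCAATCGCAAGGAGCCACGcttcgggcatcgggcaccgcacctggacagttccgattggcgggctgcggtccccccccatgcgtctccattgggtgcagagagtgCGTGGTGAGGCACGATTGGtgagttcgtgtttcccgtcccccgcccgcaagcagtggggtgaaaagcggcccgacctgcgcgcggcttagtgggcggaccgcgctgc
Calr: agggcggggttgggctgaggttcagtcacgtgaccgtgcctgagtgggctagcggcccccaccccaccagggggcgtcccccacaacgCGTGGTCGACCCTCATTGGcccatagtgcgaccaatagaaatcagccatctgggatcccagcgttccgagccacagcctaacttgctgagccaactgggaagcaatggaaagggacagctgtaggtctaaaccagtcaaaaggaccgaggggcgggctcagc
Hspa5 (chr2:34771840-34772089, plus strand, GRCm38.p6) has 1 match that begins 65 bases before the start. Hsp90b1 (chr10:86705445-86705694, minus strand) has 2, beginning 212 bases before the start on its own strand and 107 bases before it on the other. Calr (chr8:84846932-84847181, minus strand) has 1, on the other strand, beginning 162 bases before the start. The motif occurs in 37 of 32851 promoter windows (0.113%), and in 8 of the 34 ER pathway genes with a window. Canx, Creld2, Dnajc3, Pdia6 and Syvn1 also carry it and were not called.

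Mitochondrially encoded genes had negative log2 fold changes in all 15 cases (median -0.63), and in 12 of 15 with library size as the only scaling. Both ribosomal RNA genes of the mitochondrion were called. mt-Rnr1 was at 3528 and 3352 CPM in LY6D+SCA1Int, 9962 and 6930 in LY6D+SCA1low, 5642 and 5698 in LY6D-SCA1Int, and 12777 and 14806 in LY6D-SCA1low (-1.29 ± 0.19, adjusted p = 0.000179). The change of mt-Rnr2 was -0.89 ± 0.19 (adjusted p = 0.0186), and its call was lost in 6 of 20 alternatives. These included library size alone, DESeq2 and limma-trend. 7SK RNA, a small nuclear RNA that restrains transcription elongation, was lower as well: Rn7sk stood at 175 to 1950 CPM in the SCA1Int libraries and 985 to 10442 in the SCA1low libraries (-2.15 ± 0.31, adjusted p = 0.000179), with near-identical copies whose reads cannot be assigned. These RNAs and the 3 nuclear ribosomal features (-0.90 to -0.91) moved in the same direction as the secretory genes, and the part of RNA quality in the secretory and ER results was not tested. With those 3 nuclear features left out of the fit, 50 genes were called, of which 48 were among the 51. The secretory list again had 9 lower. mt-Rnr1 and mt-Rnr2 stayed in that fit. So did Gm26917, a called lower long intergenic RNA annotated beside the 3 features (chromosome 17, 39843013 to 39846341). Its average log2 fold change ran from -2.38 to -1.81 over the alternatives.

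The genes that rose included 3 keratins of basal cells. Among 24 tested genes of basal epithelium, 3 rose and 0 fell, and the median was 2.03 with 22 positive. DESeq2 called 7 higher and limma-trend 2, and without the doubted library 3 were called. Krt14, which pairs with Krt5 in the filaments of basal cells (chromosome 11, 100203162 to 100207548), was at 373 and 324 CPM in LY6D+SCA1Int and 161 and 193 in LY6D+SCA1low. In LY6D- cells it was at 178 and 193 CPM at SCA1Int and nearly absent at SCA1low, at 3.55 and 3.29 CPM. The log2 fold change was 5.76 ± 0.67 in LY6D- cells (adjusted p = 3.94e-05) and 0.98 ± 0.55 in LY6D+ cells (adjusted p = 0.822), for an average of 3.37 ± 0.43 (adjusted p = 4.26e-05). Krt15, a keratin of basal and progenitor cells (chromosome 11, 100131758 to 100135928), was more abundant. It reached 2734 and 1482 CPM in LY6D+SCA1Int, 1063 and 1223 in LY6D+SCA1low and 964 and 1087 in LY6D-SCA1Int, and only 26.4 and 125 in LY6D-SCA1low (average 2.32 ± 0.31, adjusted p = 8.32e-05). The 2 SCA1 levels did not overlap within either state.

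Krt5 (chromosome 15, 101707070 to 101712898) was at 318 and 284 CPM in LY6D+SCA1Int and at 186 and 460 in LY6D+SCA1low, which overlap. LY6D- cells held 95.7 and 199 CPM at SCA1Int and 3.76 and 4.16 at SCA1low. Its called average (2.56 ± 0.46, adjusted p = 0.00323) thus came from LY6D- cells, with log2 fold changes of 5.21 ± 0.73 there and -0.10 ± 0.61 in LY6D+ cells. Trp63, the transcription factor gene that defines basal cells, had 38.6 and 11 CPM in LY6D-SCA1Int and 4 and 5 counts in LY6D-SCA1low, a change within LY6D- cells of 5.82 ± 1.77 (adjusted p = 0.408). In LY6D+ cells it was at 72.2 and 197 CPM against 44.3 and 46.2, and neither that change nor the average (3.69 ± 1.13, adjusted p = 0.32) was called. Summed over 25 basal genes the share of counts was 0.457% and 0.557% in LY6D+SCA1Int, 0.247% and 0.331% in LY6D+SCA1low, 0.279% and 0.284% in LY6D-SCA1Int, and 0.031% and 0.0874% in LY6D-SCA1low. The share of basal cells among the sorted cells was not measured, so its part in the rise of these genes was not tested.

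Lgals7, a galectin of stratified epithelia (chromosome 7, 28863853 to 28866284), was at 588 and 670 CPM in LY6D+SCA1Int, 165 and 203 in LY6D+SCA1low, 275 and 303 in LY6D-SCA1Int, and 9.14 and 37.3 in LY6D-SCA1low. All SCA1Int libraries exceeded all SCA1low libraries (average 2.70 ± 0.44, adjusted p = 0.000845). It was the only called gene of 20 tested in the list of stratified and cornified epithelium, whose median was 1.16 with 18 positive.

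Scpep1, a retinoid-inducible serine carboxypeptidase assigned to the lysosome (chromosome 11, 88924020 to 88955465), also separated completely. It stood at 620 and 413 CPM in LY6D+SCA1Int, 325 and 443 in LY6D-SCA1Int, 52.4 and 178 in LY6D+SCA1low, and 5.27 and 10.3 in LY6D-SCA1low (3.89 ± 0.51, adjusted p = 5.97e-05). Its interval overlaps that of Scpep1os. No other member of the lysosomal list (27 tested, median 0.29) was called. S100a6, a calcium-binding protein gene (chromosome 3, 90612882 to 90624181), was the third with no overlap and the 1 higher gene with nearly the same change in both states. Its values were 670 and 449 CPM in LY6D+SCA1Int, 410 and 316 in LY6D-SCA1Int, 69.5 and 179 in LY6D+SCA1low, and 69.3 and 105 in LY6D-SCA1low. The log2 fold change was 2.17 ± 0.48 in LY6D+ and 2.06 ± 0.48 in LY6D- cells, neither called alone, and 2.11 ± 0.34 on average (adjusted p = 0.000775). Among 19 tested S100, annexin and related genes the median was 1.29, and S100a6 was the only one called on average.

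Other higher genes had varied roles. Hbegf, an EGF receptor ligand (chromosome 18, 36504927 to 36515805), was at 1040 and 893 CPM in LY6D+SCA1Int against 608 and 482 in LY6D+SCA1low, and at 616 and 420 in LY6D-SCA1Int against 142 and 91.7 in LY6D-SCA1low (1.49 ± 0.27, adjusted p = 0.00441). Ier3, an immediate early gene, was the 1 called member of the 36 tested in its list (1.08 ± 0.21, adjusted p = 0.00949). Its LY6D+ libraries overlapped, with 2260 and 1449 CPM at SCA1Int and 1204 and 1670 at SCA1low. In LY6D- cells they did not, with 1394 and 1114 CPM against 294 and 430. The call was lost under RLE scaling and under DESeq2. The immediate early list as a whole had a median of 0.97 in LY6D- and -0.07 in LY6D+ cells, beside 0.22 and 0.11 over all genes, and Fos and Jun changed by 0.28 and -0.05 on average. Kmt2e, a chromatin regulator gene, rose by 2.67 ± 0.54 (adjusted p = 0.0135). Leaving out LY6D+SCA1low replicate 2 or LY6D-SCA1Int replicate 1 ended that call. No promoter of the 9 higher genes with a RefSeq window held the AP-1 motif TGANTCA, which 6.75% of all windows hold, and 3 of 22 lower genes with a window did.

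The next question was whether SCA1 level made the same difference in cells with and without LY6D. Within LY6D+ cells 26 genes were called (0.17%), 0 higher and 26 lower. At an unadjusted p below 0.05 there were 218 higher and 389 lower genes, and DESeq2 called 103 higher and 136 lower, limma-trend 0 and 5. Within LY6D- cells 27 were called (0.177%), 18 higher (0.118%) and 9 lower (0.0589%). Without the doubted library the count within LY6D- cells was 74, and with library size alone 42 were higher and 9 lower, against 11 and 23 under RLE. Of the 51 genes of the average, 46 had the same sign in both states. The median log2 fold change of the secretory list was -2.79 in LY6D+ and -1.15 in LY6D- cells, with 9 and 2 members called. The basal list ran the other way, with medians of 0.85 and 2.14, and 0 and 3 called. The ER list had nearly equal medians of -0.82 and -0.96.

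**Figure D3:**
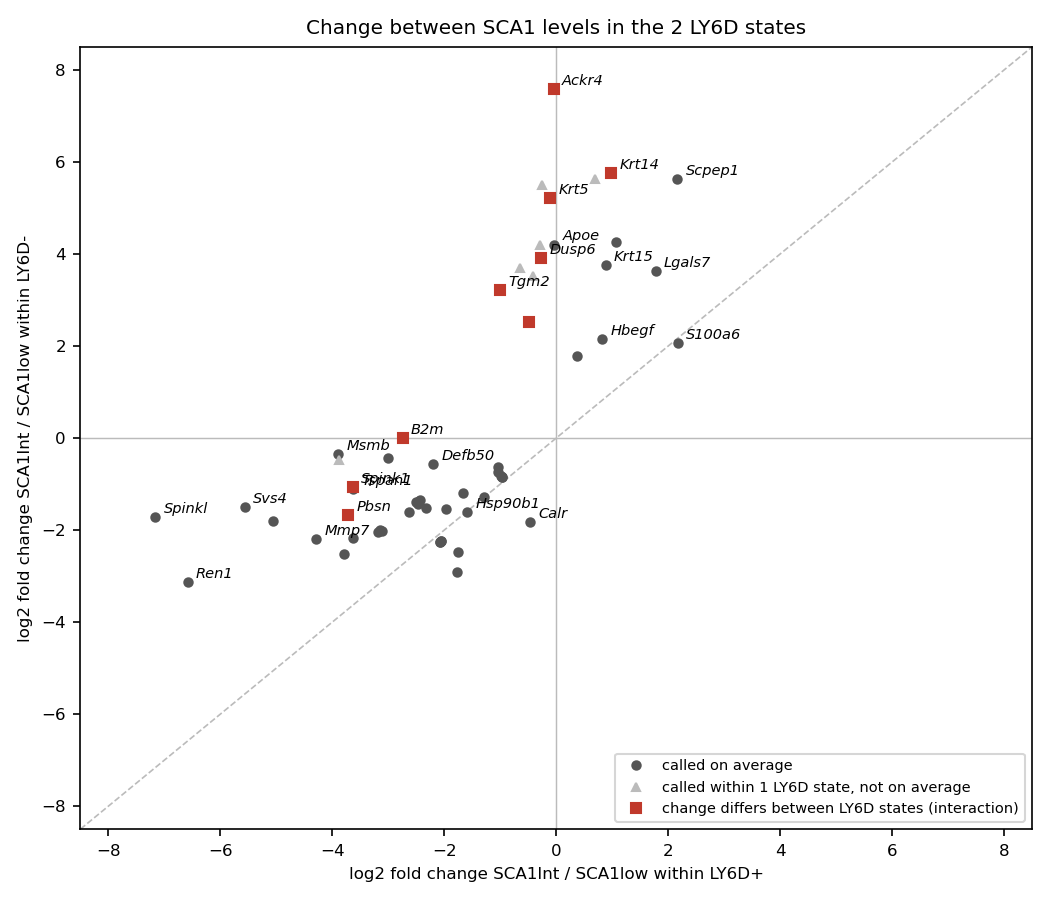
Log2 fold change from SCA1low to SCA1Int within LY6D+ cells (x axis) and within LY6D- cells (y axis) for genes called on average, within 1 state or for the difference between states. The dashed line marks equal change. Lower genes lie mostly left of it with Pbsn at -3.72 and -1.67, while Ackr4 (-0.04 and 7.59) and Krt5 (-0.10 and 5.21) move only along the y axis.

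The difference between states was tested directly and called 9 genes (0.0589%), all with the more positive change in LY6D- cells. At an unadjusted p below 0.05 there were 820 more positive and 568 more negative genes, and DESeq2 called 241 and 382. After subtraction from the doubted library of the level it shared with LY6D-SCA1high replicate 1, 5 genes were called. How that shared level arose was not tested. In 3 of the 9, a fall in LY6D+ cells was absent or smaller in LY6D- cells. For Pbsn the 2 changes differed by 2.05 ± 0.39 (adjusted p = 0.028) and for Spink1 by 2.57 ± 0.44 (adjusted p = 0.00843). The Pbsn difference did not pass in 8 of 19 alternatives. These included RLE, DESeq2, the 8 libraries alone, the fit without the 3 nuclear ribosomal features and the subtraction from the doubted library. That of Spink1 did not pass in 4 of 19, namely RLE, DESeq2 and limma-trend with either pseudocount. B2m, the light chain of MHC class I (chromosome 2, 122147686 to 122153083), was at 130 and 137 CPM in LY6D+SCA1Int against 1111 and 672 in LY6D+SCA1low. Its LY6D- values of 743 and 569 at SCA1Int and 722 and 589 at SCA1low overlapped, and the changes differed by 2.74 ± 0.54 (adjusted p = 0.0426). In 11 of 19 alternatives it did not pass, including RLE, DESeq2 and the fit without the 3 nuclear ribosomal features. The fits without LY6D+SCA1low replicate 1, LY6D-SCA1Int replicate 1 or LY6D-SCA1low replicate 1 were also among them. B2m was the only called gene of 36 tested interferon and MHC class I genes, and its average call was lost with library size alone and without LY6D+SCA1low replicate 1 or LY6D-SCA1Int replicate 2.

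In Ackr4, Krt5, Krt14, Dusp6 and Tgm2 both LY6D-SCA1low libraries were below all 6 libraries of the other 3 populations. Ackr4, a scavenging receptor for chemokines (chromosome 9, 104084157 to 104126933), was at 268 and 327 CPM in LY6D+SCA1Int, 267 and 345 in LY6D+SCA1low, 157 and 248 in LY6D-SCA1Int, and 0.86 and 1.21 in LY6D-SCA1low. Its difference between states, 7.63 ± 1.08 (adjusted p = 0.00188), was the largest of the 9, and its interval overlaps that of Acad11. Krt5 differed by 5.32 ± 0.92 and Krt14 by 4.78 ± 0.82 (adjusted p = 0.00843 for both). Dusp6, a phosphatase that dampens ERK signalling, held 301 to 1208 CPM in the other 3 populations and 16.5 and 28.4 in LY6D-SCA1low (difference 4.19 ± 0.69, adjusted p = 0.00843). Tgm2, tissue transglutaminase, was called for the difference but not on average. It was at 365 to 835 CPM in the other 3 populations and at 24.4 and 70 in LY6D-SCA1low (difference 4.22 ± 0.67, adjusted p = 0.0058). With RLE size factors 1 of these 9 calls was left, that of Ackr4, and limma-trend made 0.

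Apoe, the apolipoprotein E gene (chromosome 7, 19696109 to 19699188), followed the same pattern of values, at 140 to 478 CPM in the other 3 populations and 7.64 and 11.3 in LY6D-SCA1low, but its difference between states was not called (adjusted p = 0.0625). Its average call (2.09 ± 0.44, adjusted p = 0.0187) was lost under RLE and after the shared level was subtracted from the doubted library. It was also lost when LY6D+SCA1Int replicate 1, LY6D+SCA1low replicate 1 or LY6D-SCA1Int replicate 1 was left out.

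A further test asked whether genes changed differently over the step from SCA1low to SCA1Int than over the step from SCA1Int to SCA1high. It called 5 genes (0.0327%), all more positive over the lower step: Ackr4, Scpep1, Krt14, Krt15 and Lgals7. At an unadjusted p below 0.05 there were 1049 more positive and 234 more negative, and DESeq2 called 262 and 170, limma-trend 0 and 0. For Scpep1 the steps differed by 5.76 ± 0.76 (adjusted p = 0.000228): its LY6D-SCA1high libraries, at 58.6 and 14.7 CPM, lay below LY6D-SCA1Int. In LY6D+ cells Scpep1 was at 455 and 361 CPM at SCA1high, against 620 and 413 at SCA1Int. Krt14 differed by 4.33 ± 0.64 (adjusted p = 0.00143) and was at 20.5 and 35.6 CPM in LY6D-SCA1high, between the 2 other LY6D- populations. In LY6D+ cells Krt14 rose over both steps. It was at 161 and 193 CPM at SCA1low, 373 and 324 at SCA1Int, and 539 and 679 at SCA1high. The steps were compared only on the average of the LY6D states. Ackr4 differed by 6.80 ± 0.82, Krt15 by 3.19 ± 0.50 and Lgals7 by 3.71 ± 0.68 (adjusted p = 7.38e-05, 0.00232 and 0.0275). No secretory gene was called in this test, and the median of the list was -0.35 beside 0.32 for all genes. These steps share the SCA1Int libraries.

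**Figure D4:**
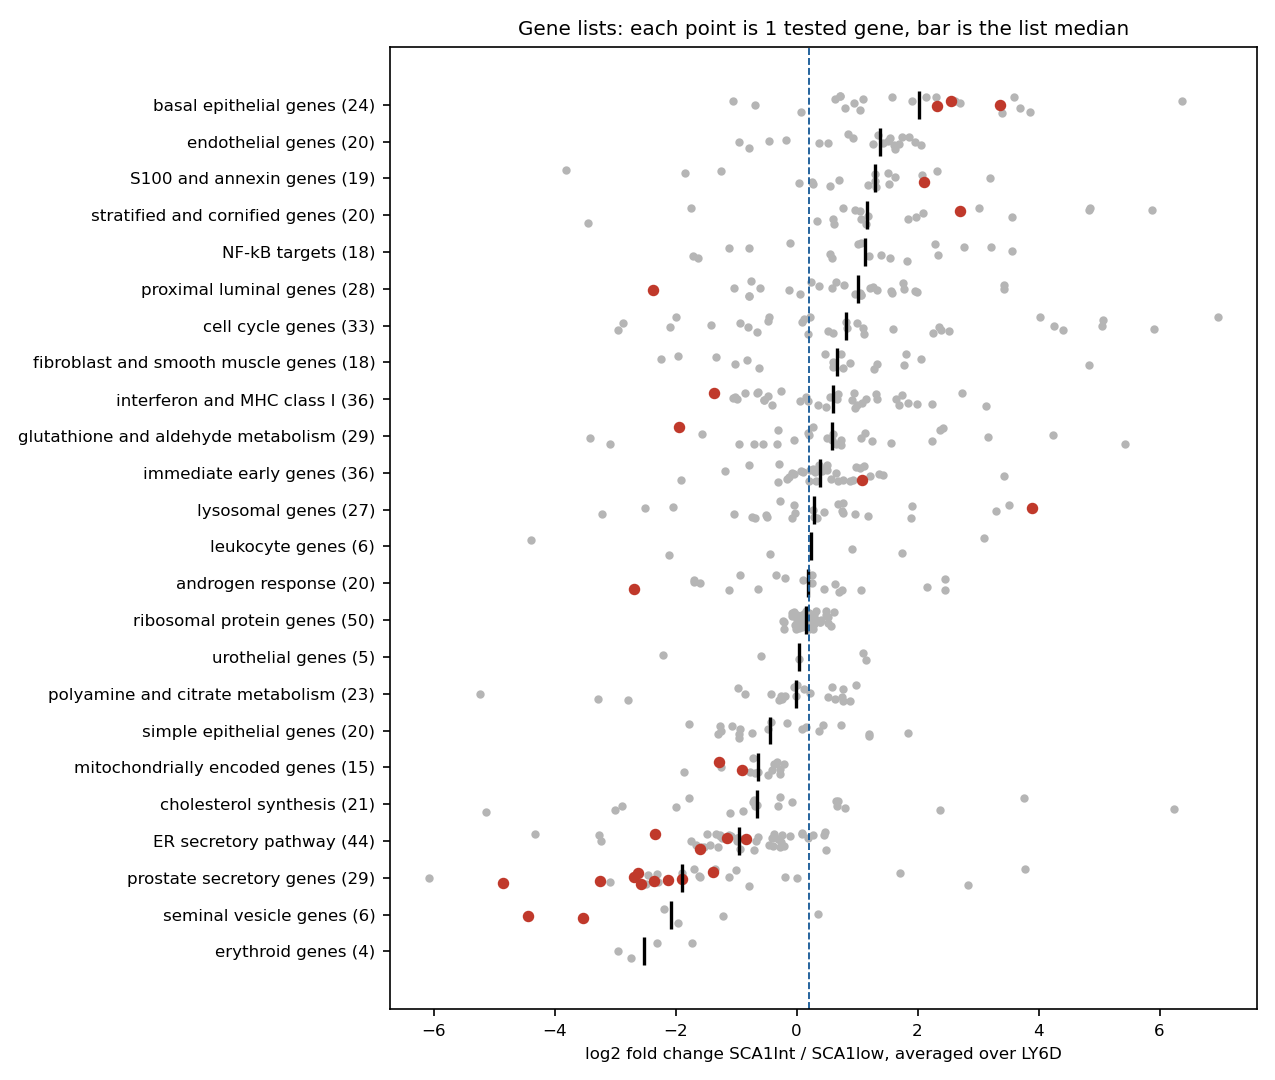
Average log2 fold change from SCA1low to SCA1Int for every tested member of 24 gene lists, with the number tested in brackets. Points are genes, red where called, black bars are list medians, and the dashed line is the median of all tested genes (0.21). Secretory genes (median -1.90) lie low and basal genes (2.03) lie high.

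Markers of other cell types moved with these groups in part. The 12 seminal vesicle genes, of which 6 were tested, mark the gland that lies beside the prostate. Svs4 (average -3.53 ± 0.66, adjusted p = 0.00492) and Spinkl (-4.44 ± 0.97, adjusted p = 0.0265) fell, but replicates were far apart: Svs4 was at 3077 and 607 CPM in LY6D+SCA1low, 1194 and 176 in LY6D-SCA1low, 334 and 149 in LY6D-SCA1Int, and 11.1 and 66.6 in LY6D+SCA1Int. The summed share of the list was 0.047% to 1.43% in SCA1low and 0.0533% to 0.454% in SCA1Int, which overlap. Svs5 fell within LY6D+ cells (-3.88 ± 0.78, adjusted p = 0.025), from 8099 and 1254 CPM to 215 and 420. Svs2 was lower at SCA1Int in LY6D+ cells, at 54.1 and 208 CPM against 320 and 297. In LY6D- cells it went the other way, at 950 and 281 CPM at SCA1Int against 278 and 37.9 at SCA1low. The list's median within LY6D- cells was 0.16, with 3 members positive and 3 negative. The part of seminal vesicle genes in the secretory result was not tested.

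Endothelial genes gave 0 calls on average among 20 tested by edgeR, 4 at an unadjusted p below 0.05, 0 by DESeq2 and 1 without the doubted library, with a median of 1.38 that was the second highest of the lists. Their summed share was 0.00924% to 0.203% in SCA1Int and 0.00718% to 0.0923% in SCA1low. Pecam1, the gene of the depleted protein CD31, was at 144 and 159 CPM in LY6D-SCA1Int against 28.6 and 69.3 in LY6D-SCA1low, the doubted library being the second of these. In LY6D+ cells it was at 2.43 and 49 against 3.75 and 11.3. Kdr moved as Pecam1 did in LY6D- cells, at 166 and 276 CPM against 51.5 and 86.4. Cdh5 did not, at 3.29 and 10.4 CPM in LY6D-SCA1Int against 9.25 and 48.4 in LY6D-SCA1low. Of the leukocyte list, 6 of 24 genes were tested and 0 called on average by edgeR (1 at an unadjusted p below 0.05) or by DESeq2, and Ptprc, the CD45 gene, had 0 to 4 counts in each of the 8 libraries. Haemoglobin genes were uneven, and 0 of 4 tested erythroid genes were called on average by edgeR (0 at an unadjusted p below 0.05) or by DESeq2. Within LY6D- cells, where their median log2 fold change was -5.22, edgeR called 0, DESeq2 called 3 lower, and the unadjusted p was below 0.05 for all 4. Hba-a1 was at 270 CPM in LY6D-SCA1low replicate 1 and at 1.03 to 30.9 in the other 7 libraries. Hbb-bs was at 156 CPM in LY6D-SCA1low replicate 1, 92.3 in LY6D+SCA1Int replicate 1 and 69.6 in LY6D+SCA1low replicate 1. It was at 0.772 to 5.72 CPM in the rest. Among fibroblast and smooth muscle genes 0 of 18 tested were called on average by edgeR (2 at an unadjusted p below 0.05, 0 by DESeq2, 1 without the doubted library), with shares of 0.116% to 0.153% in SCA1Int and 0.0383% to 0.0995% in SCA1low. For reference, 1473 of all 15270 tested genes were at an unadjusted p below 0.05 on average by edgeR, and DESeq2 called 764. Within LY6D- cells these counts were 1496 and 1062. The part of cells of these other types in the genes that rose was not tested.

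Several lists held few or no calls. On average no gene was called by edgeR among 33 tested cell cycle genes (7 at an unadjusted p below 0.05), 50 ribosomal protein genes (4), 23 genes of polyamine and citrate metabolism (3), 21 of cholesterol synthesis (3), 20 of simple epithelium (3) and 18 NF-kB targets (6). In the same order DESeq2 called 3, 0, 1, 1, 0 and 2, and limma-trend called 0 in each. Over all 15270 tested genes, 1473 were at an unadjusted p below 0.05 by edgeR, DESeq2 called 764 and limma-trend 29. Of the cell cycle genes, Hmgb2 came nearest, at 239 and 238 CPM in LY6D+SCA1Int, 165 and 90.6 in LY6D-SCA1Int, 94.8 and 156 in LY6D+SCA1low, and 7.6 and 13.7 in LY6D-SCA1low (2.25 ± 0.53, adjusted p = 0.0575). The simple epithelial list had a median of -0.45, and its keratin genes Krt8 and Krt18 had log2 fold changes of -0.42 ± 0.52 and -0.94 ± 0.40, neither called. Of 5 tested urothelial genes 0 were called on average by edgeR (0 at an unadjusted p below 0.05) or by DESeq2, and none of 9 neuroendocrine genes was abundant enough to test.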

How the data were processed

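RNA of 12 libraries (6 sorted populations, 2 libraries each) was analysed; 10 to 20 ng of RNA went into each, per the labels' protocols. The authors deposited raw counts per gene for 48795 identifiers, of which 48349 matched a symbol, and normalised signal values, used only for limma-trend. Per the submitters' processing notes, featureCounts (Subread), edgeR, Picard 1.96, SAMtools 1.3.1, STAR 2.5.1 and cutadapt 1.9.1 were used, with mm10. For annotation and strand setting: not given in the sources used here. No molecular identifiers are named, so PCR copies may be counted.

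Counts were fitted with edgeR 4.0.16 in R 4.3.3: TMM, filterByExpr (15270 genes tested), 1 mean per population over 12 libraries, glmQLFit, glmQLFTest. With 12 libraries and 6 means, 6 residual degrees of freedom remain, and the biological coefficient of variation was 1.28. Each SE was obtained from the fold change and its F statistic. Positions are from GENCODE M21 and promoters from RefSeq GRCm38.p6. These sources can place the start of a gene at different bases, so the printed promoter windows overlap the gene intervals given. The fit was tested on simulated data.

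Named genes were Ly6a, Ly6d and the markers, the 15 smallest p-values per direction among called genes with a log2 CPM of at least 3 and 1 sign in both states (no Gm or Rik names), 5 per direction within each state, 6 for the interaction and the steps, and from each list the called members or at most 4 others. Of the markers, the values of Cd24a, Epcam, Lyz2, Col1a1, Col3a1 and Acta2 are not reported here. 9530053A07Rik enters as a called list member. Apoe, Aldh1a7 and some uncalled list members (5 transcription factor genes, Hyou1, Fos, Jun) were added after their values were seen. The values of 1 gene called for the difference between states are not reported here. The comparison, its members and the 25 gene lists were chosen with earlier results of these data known.

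Alternatives were RLE factors, library size alone, no filter, DESeq2 1.42.0, limma-trend (limma 3.58.1, pseudocounts 1 and 0.5), a replicate block, each library left out, the 8 libraries alone, an additive model, a 1.5-fold threshold, no ribosomal RNA features and, chosen after seeing the data, subtraction of the level carried over from LY6D-SCA1high replicate 1.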

Additional observations from a re-analysis of the deposited data

Results flagged for a closer look

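The change from SCA1low to SCA1Int differed between LY6D states in 9 genes by edgeR's interaction test, as log2 change within LY6D- cells minus that within LY6D+ cells. Of these, the differences were 7.63 for Ackr4, 5.32 for Krt5, 4.78 for Krt14, 4.22 for Tgm2, 4.19 for Dusp6, 2.74 for B2m, 2.57 for Spink1 and 2.05 for Pbsn. In Ackr4, Krt5, Krt14, Tgm2 and Dusp6 both LY6D-SCA1low libraries were the lowest of the 8, and in Pbsn, Spink1 and B2m both LY6D+SCA1Int libraries were. The cause was not tested.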

How the results depend on the processing

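Of the called genes, 115 results were recomputed under up to 20 alternatives. None changed direction, and 34 kept their call in every alternative run (19 of 50 on average, 5 of 25 within LY6D+, 10 of 26 within LY6D-, 0 of 9 for the difference between states and 0 of 5 between steps). Counts of called genes follow in the order average (51), within LY6D+ (26), within LY6D- (27), difference between states (9) and difference between steps (5). DESeq2 called 764, 239, 1062, 623 and 432. Limma-trend called 29, 5, 12, 0 and 0 with either pseudocount. Without the filter 42, 59, 20 and 22 were called after the average. Library size alone gave 51 within LY6D- cells, and RLE gave 1 for the difference between states. The additive model gave 25 on average and 0 between steps. Against a 1.5-fold change the first 2 counts were 30 and 17. After subtraction of the shared level from the doubted library, 42 were called within LY6D- cells and 5 for the difference between states. The cause of these shifts was not tested.

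With 1 library left out, the counts ran from 47 to 125, 33 to 54, 22 to 74, 10 to 27 and 6 to 32, and the lone library of a population was assumed to vary like the others. The average count was 86 without LY6D+SCA1Int replicate 1, 77 without LY6D+SCA1low replicate 2 and 125 without LY6D-SCA1low replicate 2.

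With the replicate block, 44 genes were called within LY6D- cells, and no named gene lost its call. Libraries of the same number share a prefix in their labels, whose meaning is not given, so a shared batch or pool cannot be told from the labels. The block was not used in the reported fit because over the 6 pairs of the 4 populations the deviations correlated at 0.0028 to 0.125, with 1 above 0.1. With 2 libraries a population, small changes of scarce genes were not detectable.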
